A study of Glycyrrhiza uralensis with 15 samples.

Results

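Seedlings of Glycyrrhiza uralensis (licorice) grown under drought, alone or with a bacterium, silicon or both, were compared as 1 set with watered seedlings, to see which transcripts differed whichever treatment was added. All 15 libraries of the series entered, 12 of droughted and 3 of watered plants, each from whole plants at 45 days, with 3 libraries in each of 5 groups. Droughted plants (D) were kept in sand with 35 to 45% of its saturated moisture. DB plants had the same moisture range and the strain G5 of Bacillus pumilus, and DSi plants had that range and silicon at 2 mM. DBSi plants received G5 and silicon under a label of drought stress, but the labels give no moisture range or silicon dose for them. Watered plants (CK) were held at 65 to 75%. All groups were sown as 60 seeds in a pot of sterilized sand without nutrients. Nothing in the labels says that the replicates of a group grew in different pots, so the p-values reflect only how far these libraries vary, and part of that variation may be technical. No watered library with G5 or silicon is among these samples, so the effect of an agent without drought was not measured. A difference of DB, DSi or DBSi from CK joins drought and the added agent, which that difference alone cannot tell apart.

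Licorice is a legume of dry regions whose roots store the sweet saponin glycyrrhizin. When soil dries, plants make more abscisic acid, a hormone that closes stomata and switches on genes for protective proteins and compatible solutes, while genes of growth and photosynthesis are commonly turned down. Root bacteria of the genus Bacillus can promote growth under stress, and silicon taken up by roots is laid down in cell walls. The files pair none of their IDs with gene names, so genes are given by ID, no role is attached to them, and lists of drought genes and organ markers could not be run. Fewer cells of a type and less RNA per cell cannot be told apart in libraries of whole plants.

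Expression was measured by sequencing full-length cDNA on an Oxford Nanopore instrument, which reads each molecule from end to end. Values are CPM, the reads of a gene scaled to the same total of assigned reads in every library, with no correction for gene length. Tests compare libraries within a gene, and genes are ranked or binned by abundance on CPM alone. Libraries held 3039422 to 4043823 assigned reads, and 1 read was worth 0.247 to 0.329 CPM. At least 1 read was found for 23011 to 25321 genes in the droughted libraries and for 24687 to 25237 genes in the CK libraries. On the second principal component (16.6% of the variance) the lowest scores were -47.32 in D-2, -75.21 in DB-3 and -45.39 in CK-3, and the other 12 libraries ran from -21.42 to 48.62. DBSi-2, at 8.52, also lay away from DBSi-1 and DBSi-3, at 45.82 and 48.62. On the first component (22.1% of the variance) DBSi-1 was apart instead, at 24.49, with DBSi-2 and DBSi-3 at 74.84 and 65.41. CK-1, CK-2 and CK-3 scored -38.35, -60.56 and -3.22 there, and D-1, D-3 and DSi-3 scored -36.88, -44.7 and -46.75. Watered and droughted libraries thus did not separate on the first component. No library looked like a copy of another within a group, where the lowest chi-square per gene between libraries was 8.07 and resampling of the same reads would give about 1. Over all pairs the lowest was 5.37, so the most alike libraries were in different groups.

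Across the 4 droughted groups, weighted equally, 100 of the 22654 genes tested (0.441%) differed from CK, 39 of them higher (0.172%) and 61 lower (0.269%). At an unadjusted p under 0.05 there were 2852 genes (12.6%). The test was limma on log2(CPM + 1), with Benjamini-Hochberg adjustment over all genes tested and a threshold of 0.05. Of these genes, 93 (0.411% of those tested) had the same sign in all 4 groups, with 34 higher (0.15%) and 59 lower (0.26%). Without a test, the mean was above CK in all 4 groups for 12.8% of all genes tested and below it in all 4 for 27.6%, and the 4 differences share the same CK libraries. The median log2 difference was -0.08 over all genes tested, 1.33 over the 34 rises and -1.91 over the 59 falls, which were chosen by that difference. At least a doubling or halving on the log2(CPM + 1) scale was seen for 27 of the 34 rises and 52 of the 59 falls. In the remaining 7 called genes, 5 higher and 2 lower, D alone had the opposite sign, with log2 differences of -0.26 to -0.03 for the first kind and 0.08 to 0.24 for the second.

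**Figure D1:**
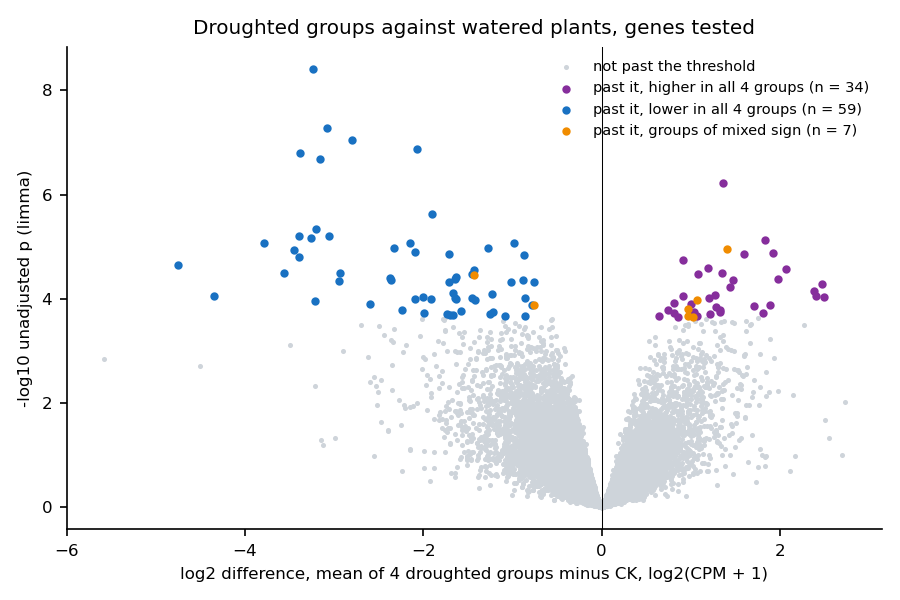
Each point is 1 of 22654 genes, with the log2 difference between the mean of the 4 droughted groups and CK across and the -log10 of limma's unadjusted p upward. Genes past the threshold reach -4.75 on the lower side and 2.49 on the higher side, and 7 of the 100 have groups of mixed sign.

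The number of genes called depended on single libraries and groups, and the split between higher and lower on the scaling. Leaving out CK-1 or CK-2 gave 58 or 31 genes. Leaving out D-1 gave 62, D-2 63, D-3 63, DB-2 59, DBSi-2 57 and DBSi-3 58. The genes of the same sign numbered 56, 30, 59, 61, 61, 56, 55 and 56 in those fits, in that order. With the D group left out the count was 305, and with the DBSi group left out it was 7, 1 higher and 6 lower. Of the calls, 39% were higher with the deposited scaling, 56.4% with median-of-ratios scaling, 52.2% with quantile normalization and 28.7% in edgeR. When the 12 droughted libraries were treated as 1 group, so that differences among the 4 treatments counted as spread, limma called 22 genes, all of them lower and all among the 100.

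**Figure D2:**
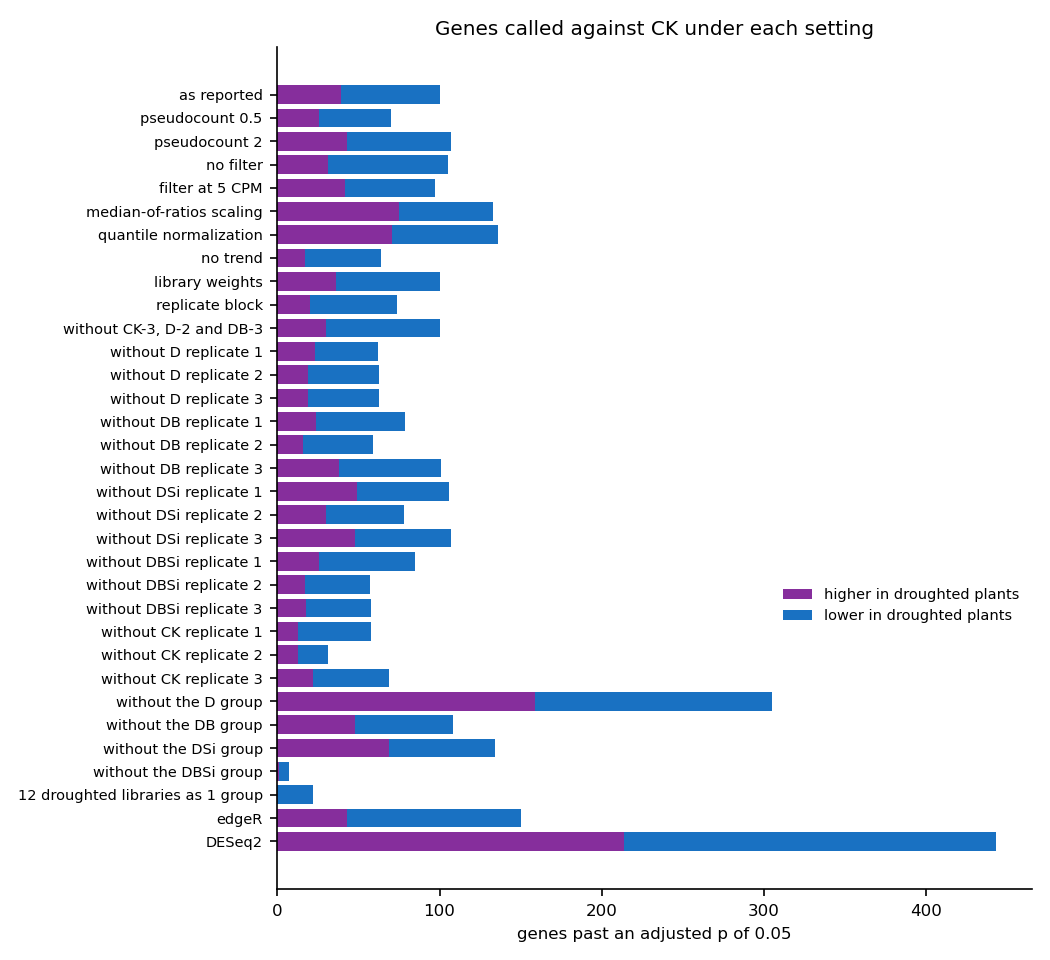
Bars give the number of genes past the threshold under each setting, split into genes higher and lower in droughted plants. The bar is longest in DESeq2 (443 genes) and shortest without the DBSi group (7 genes).

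The clearest falls were alike in every droughted group. Glyur000910s00020573 had 0.573, 0 and 0 CPM in D, 0.299, 0.307 and 0 CPM in DB, 0.933, 0 and 0.247 CPM in DSi and 0.3, 0 and 0.31 CPM in DBSi, against 13.3, 9.68 and 9.0 CPM in CK. Each droughted library thus held 3 reads or fewer. All 12 were below 1 CPM, so the gene passed the filter (1 CPM or more in at least 3 libraries) only through CK. That it was read in every CK library and did not overlap follows from the filter. Its mean was 0.248 ± 0.29 CPM (SD, n = 12) in droughted plants and 10.6 ± 2.3 CPM (SD, n = 3) in CK, 43.0-fold lower, with a log2 difference of -3.24 (SE 0.25, limma adjusted p = 8.8e-05). Glyur000520s00025576 ran from 7.9 to 21.3 CPM, with a median of 12.7, over the 12 droughted libraries and stood at 192, 64.0 and 114 CPM in CK. The ranges were far apart, and the log2 difference was -3.08 (SE 0.30, limma adjusted p = 0.000593). These genes had the smallest p among the falls and were picked for that after their values were seen, and both kept their call in all 32 alternatives tried, with an adjusted p of 0.0122 or less.

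Some large falls had watered libraries that differed among themselves. Glyur000176s00012119 lay between 0 and 2.49 CPM in the 12 droughted libraries, with a median of 0.587 and 27 reads in all, against 3.56, 182 and 89.7 CPM in CK-1, CK-2 and CK-3. No droughted library reached the lowest CK library, and the mean was 134-fold lower, with a log2 difference of -4.75 (SE 0.77, limma adjusted p = 0.0184). The call was lost without CK-2 (-3.69, limma adjusted p = 0.0997) or CK-3 (-4.20, limma adjusted p = 0.0642). Glyur000155s00012801 lay between 0 and 6.22 CPM in droughted plants, with a median of 0.442, against 72.2, 11.4 and 11.3 CPM in CK. Here CK-1 was the high library, and the log2 difference was -3.79 (SE 0.56, limma adjusted p = 0.0123). Among the 59 falls, the highest CK library was over 5 times the lowest for 12 genes. CK-1 was the highest for 22 genes, CK-2 for 28 and CK-3 for 9.

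Glyur001117s00026958 had the next largest fall after Glyur000176s00012119 among genes without overlap, and its watered libraries were close to each other. It had 0.287, 1.65 and 12.5 CPM in D, 2.09, 16.3 and 0 CPM in DB, 51.3, 3.9 and 25.7 CPM in DSi and 0.3, 0 and 0.31 CPM in DBSi, against 66.0, 88.2 and 102 CPM in CK. DSi-1 came nearest to the watered plants, and the DBSi libraries were at or near 0. The log2 difference was -4.35 (SE 0.80, limma adjusted p = 0.0346), and the F-test among the droughted groups did not pass (limma adjusted p = 0.149). The call was lost without D-2, DB-1, DBSi-2, DBSi-3 or any of the 3 CK libraries, with adjusted p from 0.0519 to 0.151.

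Most of the rises, and few of the falls, passed a test of differences among the droughted groups. An F-test over D, DB, DSi and DBSi, which uses no CK library in its contrasts, called 891 of 22654 genes (3.93%). It called 28 of the 34 rises and 7 of the 59 falls, 35 genes in all (0.154% of those tested). The mean that chose these genes includes DBSi, and the difference between the counts for rises and falls was not tested. In all 28 of those rises the largest difference from CK was in DBSi. Among the 34 rises the largest difference was in DBSi for 30, in DB for 3, in DSi for 1 and in D for 0. The smallest was in D for 28 and in DB for 6. Median log2 differences of the rises from CK were 0.54 for D, 1.05 for DB, 1.12 for DSi and 2.51 for DBSi. Those of the falls were -1.85, -1.96, -1.91 and -2.22 in the same order. The 4 group differences lay within 1 log2 unit of each other for 3 of the 34 rises and 32 of the 59 falls.

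**Figure D3:**
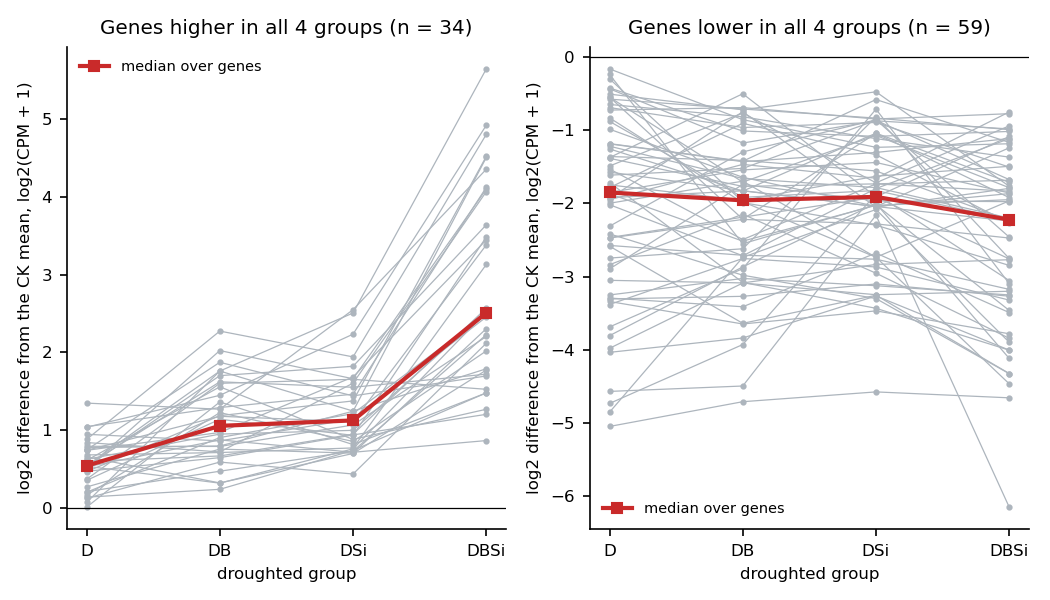
Each grey line is 1 gene, with the log2 difference from the CK mean upward and the droughted group across, and the red squares are medians over genes. The median of the rises is 0.54 in D and 2.51 in DBSi, while that of the falls stays between -1.85 and -2.22.

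The count of 35 became 16 when CK-1 was left out, 14 for CK-2, 21 for CK-3, 20 for D-1, 23 for D-2 and 20 for D-3. It became 19 for DB-2, 18 for DBSi-2 and 19 for DBSi-3. The F-test itself called 586 genes when DBSi-1 was left out, 544 for DBSi-2 and 533 for DBSi-3.

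The values that chose these genes were also read library by library, as a description. For 26 of the 34 rises every DBSi library was above the other 9 droughted libraries, a pattern held by 4% of all genes tested. For 5 of the 59 falls every DBSi library was below them, against 1.52% of all genes tested. All 3 D libraries lay above all CK libraries for 9 of the 34 rises (3.13% of all genes tested), and below them for 51 of the 59 falls (8.78%). DB libraries were clear of CK for 29 rises (4.47%) and 56 falls (11.8%), and DSi libraries for 31 rises (6.76%) and 52 falls (7.33%). DBSi libraries were clear of CK for all 34 rises (9.6%) and all 59 falls (15.4%). The comparison that chose the genes used these values, so nothing is read from the shares. Over all 12 droughted libraries, 8 of the rises and 42 of the falls did not overlap CK, against 0.185% and 0.949% of all genes tested. These counts cannot be compared between rises and falls. A gene below 1 CPM in all 12 droughted libraries passed the filter only if all 3 CK libraries reached 1 CPM, which fixed its lack of overlap. Rises could pass through any 3 droughted libraries. The 34 rises together took 0.145 to 0.156% of the reads of a D library, 0.196 to 0.212% for DB, 0.173 to 0.287% for DSi and 0.616 to 0.696% for DBSi, against 0.0917 to 0.11% in CK. The 59 falls took 0.131 to 0.177% of the reads of a D library, 0.0731 to 0.0917% for DB, 0.0779 to 0.0971% for DSi and 0.0634 to 0.0707% for DBSi, against 0.293 to 0.424% in CK.

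Glyur001526s00032538 and Glyur000187s00024034 were the largest rises whose droughted and watered libraries did not overlap. Glyur001526s00032538 had 23.8, 25.3 and 19.7 CPM in D, 30.2, 16.0 and 25.8 CPM in DB, 54.7, 19.8 and 29.9 CPM in DSi and 447, 318 and 222 CPM in DBSi, against 12.3, 15.9 and 11.03 CPM in CK. The DBSi libraries stood alone, and DB-2 was only just above CK-2. Its log2 difference was 1.83 (SE 0.27, limma adjusted p = 0.0123), the F-test among the droughted groups gave a limma adjusted p of 0.000153, and without the DBSi group the difference was 0.94 (limma adjusted p = 0.374). The call was also lost without CK-3, D-2 and DB-3 together and with the droughted libraries as 1 group. Glyur000187s00024034 ran from 84.2 to 1082 CPM, with a median of 122, in the droughted libraries and stood at 23.9, 76.5 and 63.3 CPM in CK. Its DBSi libraries were at 1082, 698 and 868 CPM and no other droughted library passed 273 CPM. Its log2 difference was 1.98 (SE 0.34, limma adjusted p = 0.0225), and its call was lost without CK-1 (1.48, limma adjusted p = 0.0954). It was also lost without the DBSi group and with the 12 droughted libraries as 1 group (limma adjusted p up to 0.439).

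Glyur000816s00024880 was the only gene called higher when the comparison was limited to the 3 groups with a stated moisture range. It had 10.03, 10.9 and 6.99 CPM in D, 19.4, 25.2 and 17.4 CPM in DB, 19.0, 19.2 and 20.0 CPM in DSi and 19.8, 22.2 and 23.9 CPM in DBSi, against 6.47, 5.12 and 6.39 CPM in CK. Every droughted library was above every watered one, and the 3 groups with an added agent lay above D without overlap. The log2 difference was 1.36 over the 4 groups (SE 0.16, limma adjusted p = 0.00197) and 1.24 over D, DB and DSi (limma adjusted p = 0.00967), and the F-test among the droughted groups passed (limma adjusted p = 0.00777). By group mean it stood at 9.29 ± 2.0 CPM in D, 20.7 ± 4.0 CPM in DB, 19.4 ± 0.55 CPM in DSi and 22.0 ± 2.0 CPM in DBSi, against 5.99 ± 0.76 CPM in CK (SD, n = 3 each). It kept its call in 31 of 32 alternatives and lost it with the 12 droughted libraries as 1 group (limma adjusted p = 0.118).

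For the mean of D, DB and DSi, in the fit that keeps the DBSi libraries for the estimate of spread, 26 genes (0.115%) differed from CK, 1 higher (0.00441%) and 25 lower (0.11%), and these are all among the 93 genes of the same sign. Against CK one group at a time, limma called 11 genes for D (0.0486%), 25 for DB (0.11%), 13 for DSi (0.0574%) and 1347 for DBSi (5.95%), all with the same CK libraries. Adjusted values under the threshold were thus reached by 25 of the 59 falls and 1 of the 34 rises once DBSi left the mean. With the DBSi libraries left out of the fit as well, the same contrast called 7 genes, 1 higher and 6 lower. A rise that misses the threshold here is not shown to be absent, since the 3-group mean of Glyur000187s00024034 was still 1.26 above CK on the log2 scale (limma adjusted p = 0.278). Glyur000176s00012119 and Glyur000155s00012801 were the largest falls without overlap in this comparison (-4.78 and -3.71, limma adjusted p = 0.0376 and 0.0258), and both lost their call with the DBSi libraries out of the fit (limma adjusted p = 0.101 and 0.0893). Glyur000816s00024880 kept its call there (limma adjusted p = 0.0482). Leaving out CK-2 gave 8 genes, DBSi-2 and DBSi-3 12 each, DSi-1 14 and DSi-2 17, and leaving out any of D-1, D-3, DB-2 and DB-3 gave 13.

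The most abundant falls differed in how D stood to CK. Glyur000008s00001267, the most abundant fall, had 764, 567 and 987 CPM in D, 163, 145 and 145 CPM in DB, 226, 191 and 242 CPM in DSi and 91.6, 68.7 and 80.1 CPM in DBSi, against 650.5, 1473 and 730.2 CPM in CK. The D libraries overlapped CK, while the other 9 droughted libraries lay below both. The log2 difference was -2.07 over the 4 groups (SE 0.21, limma adjusted p = 0.000719), and the F-test among them gave a limma adjusted p of 0.000167. The call was lost without the DBSi group and with the 12 droughted libraries as 1 group (limma adjusted p up to 0.353). Glyur000040s00007410, the next in abundance, was different in kind, with 17.1 to 178 CPM and a median of 82.0 in droughted libraries against 384, 238 and 259 CPM in CK. No droughted library reached CK, and DBSi was the group nearest to it. Its log2 difference was -1.91 (SE 0.36, limma adjusted p = 0.0346), and its call was lost without D-1, D-2, DBSi-2, DBSi-3 or any CK library, with adjusted p from 0.0557 to 0.137.

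Glyur000312s00022000 lay somewhat below CK in 3 groups and further below it in the fourth. It ran from 18.3 to 29.9 CPM in the 9 libraries of D, DB and DSi and had 10.2, 11.1 and 9.0 CPM in DBSi, against 33.3, 35.9 and 41.2 CPM in CK. The 3 levels did not overlap. Its log2 difference was -0.87 (SE 0.13, limma adjusted p = 0.0132), with an F-test among droughted groups at a limma adjusted p of 0.00112. Over D, DB and DSi the difference was -0.57 and was not called (limma adjusted p = 0.221). The call over the 4 groups was lost without CK-2 (-0.88, limma adjusted p = 0.0677) or CK-3 (-0.78, limma adjusted p = 0.0573). It was also lost without CK-3, D-2 and DB-3 together, without the DBSi group and with the 12 droughted libraries as 1 group.

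The other rises of high abundance or strong group differences followed DBSi. Glyur004520s00047601 had 106, 97.5 and 99.3 CPM in DBSi and 20.1 to 43.9 CPM in the other 9 droughted libraries, against 19.1, 20.2 and 23.2 CPM in CK. Outside DBSi its libraries overlapped CK at the low end, and its log2 difference of 0.91 (SE 0.14, limma adjusted p = 0.0149) was not called without CK-1 (0.85, limma adjusted p = 0.0705) or CK-2 (0.89, limma adjusted p = 0.078). The same held without CK-3, D-2 and DB-3 together, without the DBSi group and with the droughted libraries as 1 group. Glyur001880s00033690, the most abundant rise, had 902, 679 and 639 CPM in DBSi and 145 to 286 CPM in D, DB and DSi, against 147, 163 and 84.8 CPM in CK. Its call was marginal (1.03, SE 0.21, limma adjusted p = 0.0486) and was lost whichever single library was left out, with adjusted p from 0.0501 to 0.133.

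**Figure D4:**
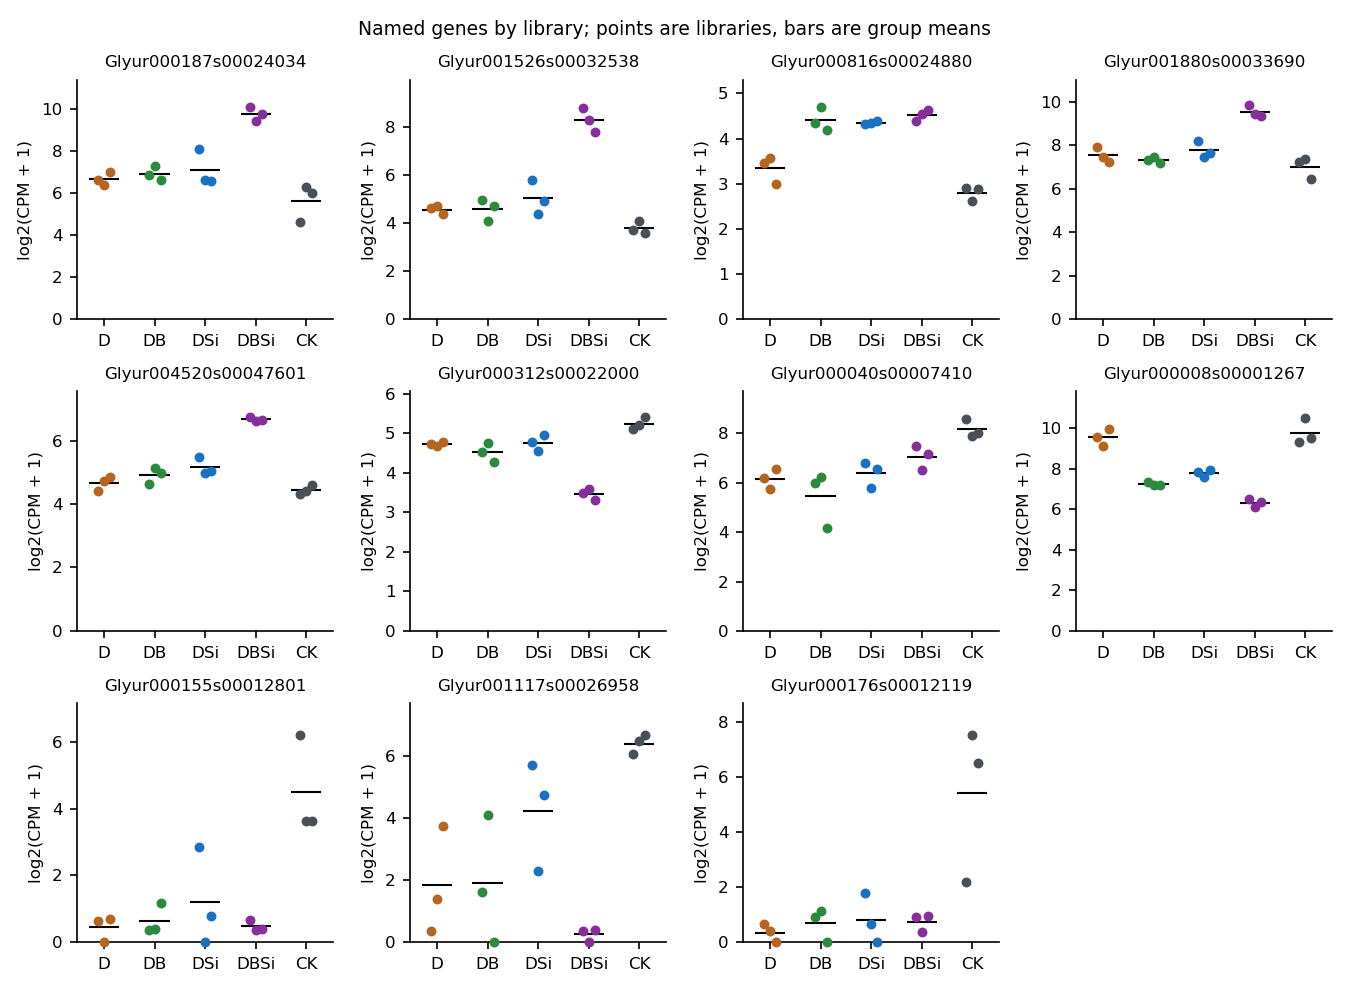
Each panel is 1 gene chosen by the rule for named genes, with log2(CPM + 1) upward and the 4 droughted groups left of CK, where points are libraries and bars are group means of 3. Except for Glyur000816s00024880, the 5 rises are highest in DBSi by a wide margin, and that gene has means of 19.4 to 22.0 CPM in DB, DSi and DBSi.

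Features of the IDs that the comparison did not use were also tallied. Genes whose IDs begin with ONT made up 2312 of the 22654 genes tested, 2 of the 34 rises and 5 of the 59 falls. Calls were spread over abundance, with 0.292% of the 9237 genes with a mean of 1 to 10 CPM, 0.592% of the 10129 genes at 10 to 100 CPM and 0.647% of the 1701 genes at 100 to 1000 CPM. The median standard error over these bins was 0.32, 0.18 and 0.17 on the log2 scale. At the median standard error of all genes, 0.25, a log2 difference had to reach 1.25 to be called, and genes with a smaller standard error were called from 0.65 upward in size. A measured difference below the limit that a gene's own standard error sets was not called, which does not show that the gene did not shift.

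Per isoform, 63 of the 35504 tested (0.177%) differed from CK, 16 higher (0.0451%) and 47 lower (0.132%). The same sign in all 4 groups was held by 15 rises (0.0422%) and 45 falls (0.127%), and 9 and 31 of them did not overlap CK, against 0.989% of all isoforms tested. As for genes, the filter fixed this for falls below 1 CPM in every droughted library. The count was 21 without CK-2 and 40 without DBSi-2. Of the calls, 25.4% were higher with the deposited scaling, 42.7% with median-of-ratios scaling and 45.7% with quantile normalization. Isoform loci were tied to gene IDs where their reads equalled, in all 15 libraries, the reads of a gene that its own isoforms did not hold. All 15 rises and 41 of the 45 falls were tied to a gene, and that gene was itself called for 8 of the rises and 34 of the falls. Where 1 isoform holds all reads of its gene, both have the same values, as for Glyur000001s00000131.1 (1.60 for both). The isoform and gene calls are thus not independent, and such isoforms were not counted.

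The largest isoform rise and the largest isoform fall belonged to the same locus, ONT.14848. Isoform ONT.14848.5 had 33.0, 40.1 and 38.0 CPM in D, 33.2, 36.5 and 33.5 CPM in DB, 36.1, 21.9 and 32.4 CPM in DSi and 38.2, 29.9 and 35.4 CPM in DBSi, against 0 CPM in every CK library. Isoform ONT.14848.4 was at 0 CPM in 10 droughted libraries, at 13.8 CPM in DSi-2 and at 5.7 CPM in DBSi-2, against 38.2, 37.3 and 39.5 CPM in CK. The droughted libraries thus held 1 form and the watered libraries the other, and DSi-2 and DBSi-2 held both. With a floor of 3 reads per CK library, ONT.14848.5 was at least 37.9-fold higher, with a log2 difference of 5.12 (SE 0.15, limma adjusted p = 1.32e-09). Its call held in all 32 alternatives. ONT.14848.4 was 23.6-fold lower, with a log2 difference of -4.74 (SE 0.71, limma adjusted p = 0.0224), and lost its call without CK-1, CK-2 or CK-3 (-4.72 to -4.76, limma adjusted p = 0.073 to 0.0982).

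The total of the locus was not called. Its reads were tied to Glyur000834s00025315, which stood at 36.3 ± 2.5 CPM (SD, n = 12) in droughted plants and 39.2 ± 1.1 CPM (SD, n = 3) in CK, with a log2 difference of -0.11 (SE 0.10, limma adjusted p = 0.682). As a share of the locus, ONT.14848.5 made up 94.5% of 1446 reads in droughted plants and 0 of 390 reads in CK, which allows a share of up to 0.769%. ONT.14848.4 made up 4.56% in droughted plants and 98.7% in CK. By library its share was 38% in DSi-2 and 16% in DBSi-2 and 0 in the other 10 droughted libraries, against 98.3 to 99.3% in CK.

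**Figure D5:**
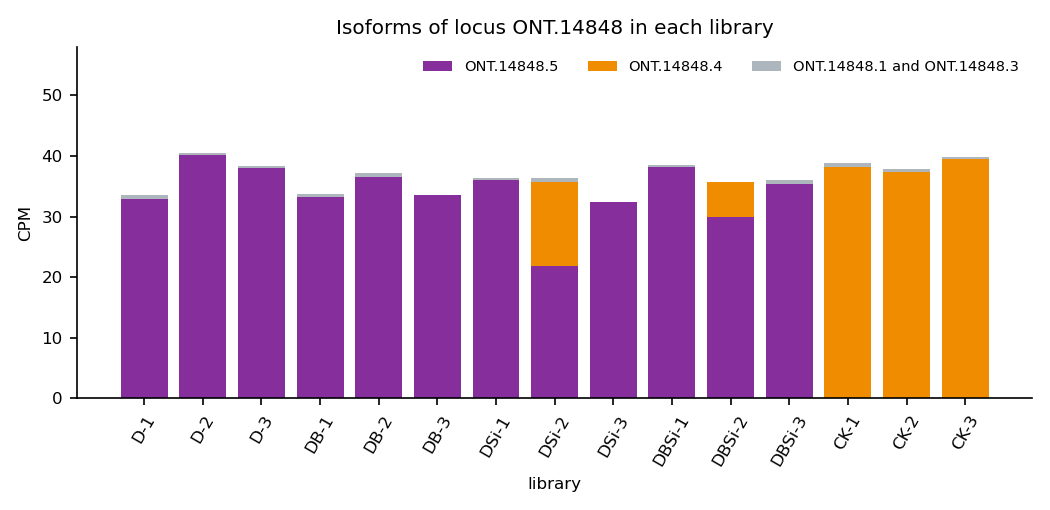
Bars give the CPM of the isoforms of locus ONT.14848 in each library, stacked, with the 12 droughted libraries left of the 3 CK libraries. The totals are close to each other, while ONT.14848.5 fills the bars of most droughted libraries and ONT.14848.4 those of CK.

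Isoform use was tested per locus with limma's diffSplice, which asks whether the isoforms of a locus changed unequally. It called 20 of 5138 loci with at least 2 tested isoforms (0.389%), and 418 at an unadjusted p under 0.05. The isoform with the most reads was not the same in droughted plants and CK for 9 of the 20. For 6 of the 20 the share of at least 1 isoform, tested or not, did not overlap between the 12 droughted and 3 CK libraries. Neither count was made over all 5138 loci, so nothing is read from them. Of the 20, 18 were tied to a tested gene, and 0 of those genes was called at the gene level by limma. The largest of their gene log2 differences in size was -1.37, for the gene of ONT.17552 (limma adjusted p = 0.0736). A gene that was not called is not shown to be unchanged. The lead isoform of ONT.17552 held 76.2% of its reads in droughted plants and 76.3% in CK. Because log2(CPM + 1) understates changes of low isoforms, a call of isoform use need not mean that shares changed. The count was 12 without CK-2.

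ONT.14848 had the smallest p of these loci (F = 167, limma adjusted p = 2.61e-08) and ONT.20285 the next (F = 17.4, limma adjusted p = 0.000383). In ONT.20285 the 4 groups differed from each other. Isoform ONT.20285.4 made up 31.3 to 47.5% of the locus' reads in the D libraries, 0 to 18.6% in DB and 27.7 to 75.6% in DSi. It had 0 of 1042 reads in DBSi, which allows a share of up to 0.288%, against 0 of 1102 reads in CK, which allows up to 0.272%. The main form, ONT.20285.2, took 54.8% of the reads for D, 82.8% for DB, 48.7% for DSi and 93.6% for DBSi, against 94.6% in CK. The call thus rested on D, DB and DSi, with DBSi and DB-3 like CK for this isoform. Its gene, Glyur003982s00042413, had a log2 difference of -0.01 (SE 0.19, limma adjusted p = 0.987).

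The other 2 leading isoforms showed both kinds of relation to their gene. Glyur000072s00008136.1 ran from 5.73 to 64.9 CPM, with a median of 17.2, in droughted libraries and had 2.91, 0 and 0 CPM in CK. No droughted library was as low as CK, the log2 difference was 3.71 (SE 0.42, limma adjusted p = 0.00269), and the gene total was 37.1 ± 19 CPM (SD, n = 12) in droughted plants and 20.3 ± 7.0 CPM (SD, n = 3) in CK, a difference that was not called (0.76, SE 0.24, limma adjusted p = 0.181). ONT.7172.3 lay between 0 and 0.931 CPM in droughted libraries, against 2.27, 73.4 and 36.6 CPM in CK, with a log2 difference of -4.22 (SE 0.64, limma adjusted p = 0.0225). With every droughted library below 1 CPM, ONT.7172.3 passed the filter only through CK, which fixed its lack of overlap. This isoform belongs to the locus tied to Glyur000176s00012119 and shares that gene's high levels in CK-2 and CK-3. Its call was lost without CK-2 (-3.30, limma adjusted p = 0.102) or CK-3 (-3.79, limma adjusted p = 0.0884).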

How the data were processed

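The authors deposited CPM values for 30197 genes and 53338 isoforms, in 1 column per library per the file headers. Per the labels' protocols, 1 µg of RNA was reverse transcribed and amplified by 14 cycles of PCR, and minimap2 is named as a tool per the submitters' processing notes. The counting tool and genome build: not given in the sources used here. How reads of near-identical genes were assigned is likewise not stated. All values (100%) were whole multiples of 1 read within 0.01, so whole reads were recovered. Floors and upper limits of shares cover counting error only, because amplified reads carrying no molecular identifier are not independent. SE and SD values come from the spread among libraries.

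Features with 1 CPM or more in at least 3 libraries were tested in R 4.3.3 with limma 3.58.1 on log2(CPM + 1), which understates changes of low genes, with all 15 libraries, group as the only factor, an intensity trend, two-sided tests and an adjusted threshold of 0.05. Folds are ratios of mean CPM. edgeR 4.0.16 and DESeq2 1.42.0 were run on recovered reads as alternatives.

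Named features, with a mean of 10 CPM or more on the higher side and the same sign in 4 groups, were the 2 largest rises and falls without overlap in each comparison, the 2 of each with the largest F among droughted groups, the 2 most abundant of each, and the 2 loci with the smallest p for isoform use. Members and rules were chosen with earlier results of these data known. On simulated counts of 22257 genes, limma found 96% of the 4-fold changes and 46% of the 2-fold ones in the 4 groups, with 4.05% of calls false. Over D, DB and DSi these were 94%, 44% and 7.38%. The F-test, with changes placed in DBSi, had 85%, 20% and 9.48%. Isoforms against CK had 73%, 26% and 7.48%, and isoform use 42%, 6% and 5.88%. Changed features had a mean of 10 CPM or more, and changes against CK were equal in the 4 groups. Falls of lower abundance and rises unequal among groups were thus not simulated.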

Additional observations from a re-analysis of the deposited data

Results flagged for a closer look

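Of the 93 genes that differed from CK with the same sign in all 4 droughted groups, 35 also differed among those groups by limma's F-test, which tests the difference of the groups itself. Among the named genes this held for Glyur001526s00032538 (limma adjusted p = 0.000153), Glyur004520s00047601 (0.000167), Glyur001880s00033690 (0.000797) and Glyur000187s00024034 (0.00175), which were highest in DBSi, and for Glyur000816s00024880 (0.00777), which was lowest in D among the droughted groups. It also held for the falls Glyur000008s00001267 (0.000167), which was near CK in D, and Glyur000312s00022000 (0.00112), which was lowest in DBSi.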

How the results depend on the processing

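The named features were recomputed under 591 combinations of feature and alternative, where 510 kept their side of the threshold, 81 lost it and 0 changed direction. Counts of genes called against CK with each library left out ran from 31 to 107 (30 to 96 for the same sign in all 4 groups), those for D, DB and DSi from 8 to 30, those of the F-test from 533 to 914, those past both tests from 14 to 42, those of isoforms from 21 to 64 and those of isoform use from 12 to 30, the lowest without CK-2 except for the F-test (without DBSi-3). Called against CK, and with the same sign, were 443 and 394 genes in DESeq2, 305 and 304 without the D group, 7 and 7 without the DBSi group, and 22 and 22 with the 12 droughted libraries as 1 group. edgeR called 142 genes of the same sign, and limma without its trend called 64 against CK. Over D, DB and DSi the count was 131 in DESeq2, 40 with no filter, 11 with a filter at 5 CPM and 15 with a pseudocount of 0.5. Genes past both tests numbered 55 with median-of-ratios scaling, 58 with quantile normalization and 19 without the trend. Isoforms numbered 480 in DESeq2, 144 without the D group, 15 without the DBSi group and 25 with the droughted libraries as 1 group. Isoform use gave 49 loci with no filter and 33 without CK-3, D-2 and DB-3 together, where the genes against CK again numbered 100, of which 46 were among the first 100. The causes were not tested. With a replicate block the counts were 74 against CK, 17 over D, DB and DSi and 40 for isoforms, and same-numbered libraries were not paired, since only 8 of 30 pairs had a correlation of deviations over 0.1 and 5 of 15 libraries correlated best with their own number. A mean of 1 CPM is about 3 to 4 reads, which limits the values of low genes.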

Other observations

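A few genes were read in 1 kind of plant only, and they were singled out after their values were seen. Across the whole table, 7 genes had reads in all 3 CK libraries and 0 in all 12 droughted libraries, and 1 gene (ONT.8411, 30 reads in all) had reads in all 12 droughted libraries and 0 in CK. The filter on low values kept none of the 7, so none was tested. Of these, Glyur000387s00017687 had 0 reads in every droughted library, against 1, 369 and 234 reads (0.324, 105 and 67.9 CPM) in CK-1, CK-2 and CK-3. The same split of the watered libraries, low in CK-1 and high in CK-2 and CK-3, was seen for Glyur000176s00012119.

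Some called genes have IDs that share their first part. Among the rises these were Glyur000019s00002088 with Glyur000019s00002090 and Glyur000618s00030214 with Glyur000618s00030223. Among the falls they were Glyur000025s00003312 with Glyur000025s00003338, Glyur000131s00012970 with Glyur000131s00012973 and Glyur000595s00018298 with Glyur000595s00018312. In other pairs 1 gene fell and 1 rose, namely Glyur000176s00012119 (-4.75) with Glyur000176s00012122 (1.44), Glyur001263s00024658 (-1.67) with Glyur001263s00024657 (0.86), and Glyur000001s00000113 (-3.16) with Glyur000001s00000131 (1.60), where the values are log2 differences from CK. Whether such genes are close copies that share reads was not tested.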
